A study of Homo sapiens with 16 samples.

Results

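Mitotic sites shared by 2 or more transcription factors were examined in LoVo, an established line of human colon adenocarcinoma cells. The regions were chosen by measured values, namely the ChIP-seq (chromatin immunoprecipitation and sequencing) peak lists of HNF4A, KLF5 and MYC in M phase. Overlapping M-phase peaks of the 3 factors were merged, with 1 bp enough to join them, and a merged region was kept when it held peaks of at least 2 factors. This gave 366 multi-factor regions of 6104 merged regions, and the other 5738 regions, each with a single factor, served as the comparison. M-phase cells had been held for 12 h in 2 mM thymidine and then 8 h in 200 ng/ml nocodazole. S-phase cells had passed through a thymidine block of 12 h, a release of 8 h and another block of 12 h, which stops them early in DNA synthesis. No siRNA treatment is named in the labels of these libraries, although the series' design text mentions one.

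Each target had 1 library in each phase, so no spread between samples exists, no test across samples could be made, and no p-value is given. All intervals are 95% intervals over regions or peaks. They cover counting error only, and neighbouring peaks are not independent. Filtered depths, without repeated tags, ran from 7362169 to 16813394 tags per ChIP library. The M-phase lists of HNF4A, KLF5, MYC and RAD21 were called against 1 shared rabbit IgG library, whose coverage at single regions was not used here. The M-phase KLF5 list carries a doubt, because the labels give its number of peaks, 2118, to that IgG library. KLF5 was part of 284 of the 366 regions, and without its list 112 regions of HNF4A with MYC were left.

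HNF4A is a nuclear receptor that maintains intestinal and hepatic epithelial identity. KLF5 is a zinc-finger factor of the dividing cells of the intestinal crypt, and MYC is a helix-loop-helix factor that promotes growth and proliferation. During mitosis chromosomes condense, transcription largely stops and most sequence-specific factors are displaced, while a minority of sites can hold a factor through division, which is known as mitotic bookmarking. Cohesin, of which RAD21 is a subunit, encircles sister chromatids. Much of it leaves chromosome arms early in mitosis, and CTCF is the DNA-binding protein at which it accumulates in interphase. The lists allow the question of what multi-factor mitotic regions carried in S phase.

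All 3 pairings occurred. KLF5 and MYC shared 131 regions, HNF4A and KLF5 122, and HNF4A and MYC 82. The remaining 31 regions held all 3 factors. The regions took up only a small part of each M-phase list: 237 of 2413 peaks for HNF4A (9.82%, Clopper-Pearson 95% interval 8.66 to 11.1%), 286 of 2118 for KLF5 (13.5%, with bounds of 12.1 and 15.0%) and 244 of 1974 for MYC (12.4%, with bounds of 10.9 and 13.9%). Most regions, 333, had exactly 2 peaks, another 31 had 3 and 2 had 4. Their median width was 1205.5 bp (quartiles 993 and 1515 bp), against 781 bp for single-factor regions. Chaining widens a region by construction.

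Overlap between the peaks of different factors was usually extensive. The largest overlap within a region had a median of 713.5 bp, and the smallest values inside the rule were 13, 21 and 75 bp. Just outside it, the closest peaks of 2 factors that did not touch lay 60, 99 and 133 bp apart. The median distance between summits of 2 factors was 161 bp over all pairs. HNF4A and KLF5 summits were closest, with a median of 104 bp over 153 regions (quartiles 42 and 270 bp). The medians were 174.5 bp for KLF5 and MYC and 196 bp for HNF4A and MYC. The regions with both factors also listed in S phase showed a similar order there. The S-phase medians were 94.5 bp for HNF4A and KLF5 (110 regions), 166.5 bp for KLF5 and MYC (120) and 167 bp for HNF4A and MYC (81). In M phase these fewer regions had medians of 103.5, 198 and 252 bp, in the same sequence of pairs. Summits lay near each other partly because the rule required overlap.

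Nearly every multi-factor region also held a factor peak in S phase. An S-phase peak of HNF4A, KLF5 or MYC was present at 353 of the 366 regions (96.4%, 94.0 to 98.1%), against 63.7% of single-factor regions and 65.7% of all merged regions. The single-factor regions were not alike, with 78.8% for HNF4A alone, 77.4% for MYC alone and 32.9% for KLF5 alone, whose list carries the doubt given above. With RAD21 and CTCF added, 355 regions had an S-phase peak, and the share over all merged regions was 67.7%. At least 2 of the 3 factors were listed in S phase at 287 multi-factor regions (78.4%), with a background, as the share over all merged regions is called from here on, of 34.0%. All 3 were listed at 192 of them (52.5%, 47.2 to 57.7%), compared with 11.9% of single-factor regions and 14.3% of all merged regions.

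By factor, an S-phase HNF4A peak lay at 308 of the 366 regions (84.2%, 80.0 to 87.7%, background 48.5%). S-phase KLF5 lay at 254 (69.4%, 64.4 to 74.1%, background 25.4%) and S-phase MYC at 270 (73.8%, 68.9 to 78.2%, background 40.1%). Single-factor regions stood at 46.3, 22.6 and 37.9%. A region with several mitotic factors has more than 1 chance to meet the S-phase list of a factor it holds, so these differences depend in part on composition. The differences, multi-factor minus single-factor, were 37.9 points for HNF4A (Newcombe interval 33.6 to 41.5). They were 46.8 points for KLF5 (interval 41.8 to 51.4) and 35.9 points for MYC (interval 31.0 to 40.3). Multi-factor regions were also stronger in M phase. Within 5 equal groups of the highest M-phase MACS score in the region, the differences fell to 18.0, 37.8 and 21.5 points. MACS is the peak caller used by the authors, and its score is -10 times the log10 of the p-value. Histone H3, the chromatin control, marked 1 multi-factor region in S phase and 1 in M phase, with backgrounds of 0.410 and 0.279%.

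**Figure D1:**
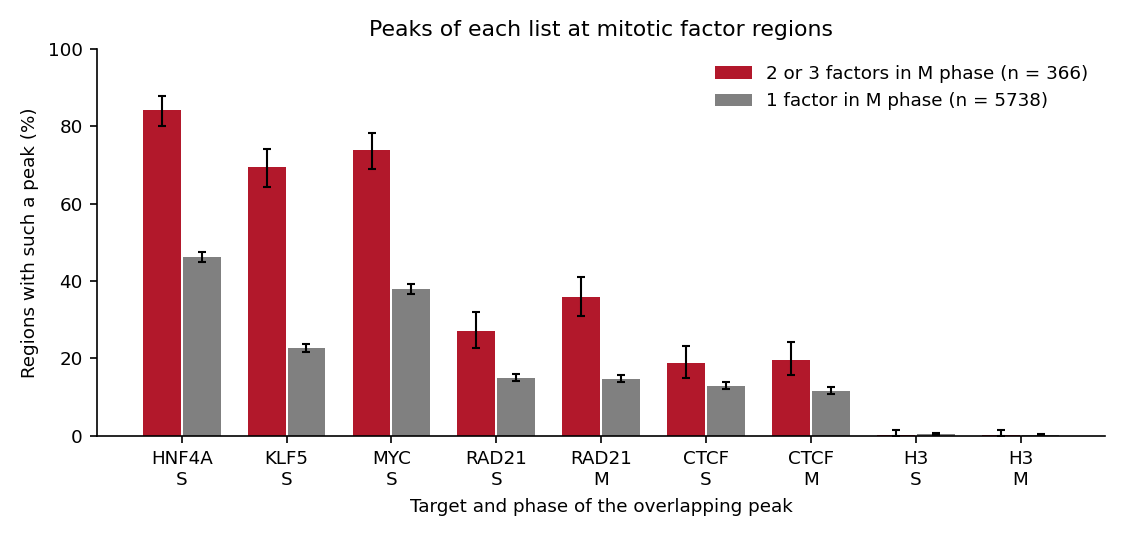
Share of mitotic factor regions (y axis, percent) that overlapped a peak of each target in S or M phase (x axis), for the 366 regions of 2 or 3 factors (red) and the 5738 regions of 1 factor (grey). Error bars are Clopper-Pearson 95% intervals over regions; red bars stand above grey ones for all 3 S-phase factors and for RAD21 and CTCF in both phases, and H3 is near 0 in both classes.

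Comparing 1 factor with itself fixes which S-phase list is met, although the partners inside multi-factor regions still differ. KLF5 differed most. Of its M-phase peaks inside multi-factor regions, 215 of 286 met an S-phase KLF5 peak (75.2%, 69.7 to 80.1%), whereas 470 of 1832 did so where KLF5 was the single mitotic factor (25.7%, 23.7 to 27.7%), and 32.3% over its whole list. The difference was 49.5 points (43.8 to 54.6). HNF4A peaks met an S-phase HNF4A peak in 223 of 237 cases inside multi-factor regions (94.1%, 90.3 to 96.7%) and in 78.3% elsewhere (79.9% over the whole list), a difference of 15.8 points (11.7 to 18.7). For MYC the shares were 203 of 244 (83.2%, 77.9 to 87.7%) and 75.4% (76.3% over the whole list), a difference of 7.82 points (2.26 to 12.5).

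Strength in M phase changed these differences. Each M-phase list was divided into 3 equal classes by MACS score. In the weakest class, HNF4A peaks had an S-phase counterpart in 79.6% of cases inside multi-factor regions and 52.1% outside, and in the strongest class in 99.1 and 98.8%. KLF5 kept a difference in every class: the shares inside and outside were 48.1 and 13.0% for weak peaks, 72.1 and 15.7% for middling ones and 84.4 and 53.3% for strong ones. MYC turned. Its peaks had a counterpart more often inside multi-factor regions in the weakest class (70.3 against 53.2%) and less often in the strongest, at 93.1 against 97.8%, a difference of -4.70 points (-11.4 to -0.867).

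**Figure D2:**
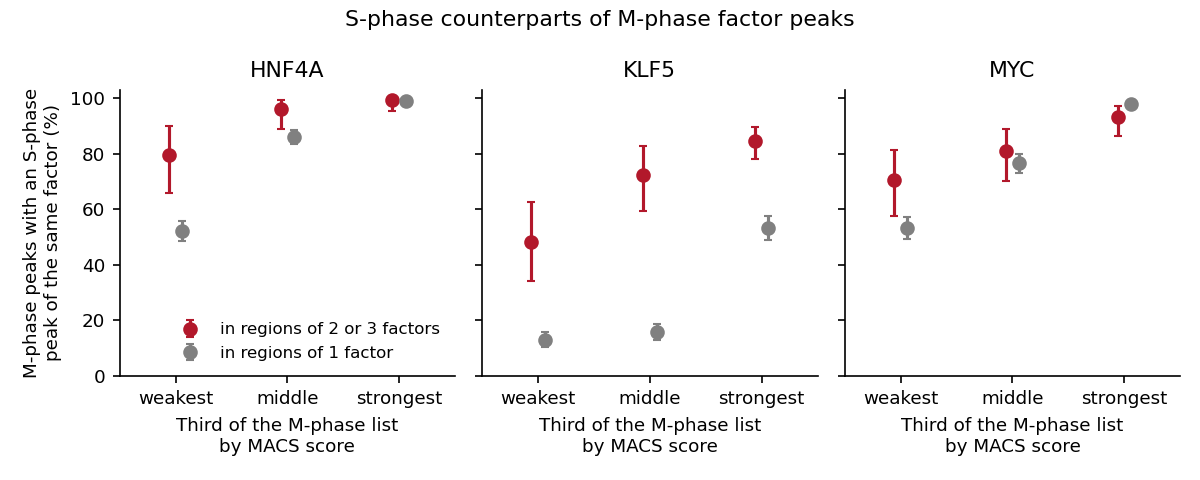
Share of M-phase peaks with an overlapping S-phase peak of the same factor (y axis, percent) by score class of the M-phase list (x axis), inside multi-factor regions (red) and in single-factor regions (grey), with Clopper-Pearson 95% intervals over peaks. KLF5 shows a gap in every class, HNF4A in the weakest and middle ones, and the MYC order turns in the strongest.

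The most frequent relation between the phases was a larger factor set in S phase. At 169 regions (46.2%, background 31.4%) S phase listed all mitotic factors of the region and also the factor not listed there in mitosis. The S-phase lists were longer, with 15437 against 2413 peaks for HNF4A, 5928 against 2118 for KLF5 and 11941 against 1974 for MYC, and the part of list length in this count was not tested. The set was the same in both phases at 90 regions (24.6%, background 29.8%). At 25 regions (6.83%, background 3.33%) the sets differed in both directions, and 13 had no S-phase factor. At 69 (18.9%) the mitotic set was larger than the S-phase set it contained, a state that a region of 1 mitotic factor cannot have. All mitotic factors were thus already listed in S phase at 259 regions (70.8%, 65.8 to 75.4%), with a background of 61.2% that is set mostly by regions with only 1 factor to match. The difference from single-factor regions, 10.2 points (5.14 to 14.8), turned to -15.0 points (-19.6 to -10.4) within the 5 groups of M-phase score. Those groups pool the 3 lists, with the limit given above. Among the 192 regions with all 3 factors in S phase, HNF4A was the factor not listed in M phase at 73, MYC at 60 and KLF5 at 36, and 23 held all 3 in both phases.

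The factor that was not listed in M phase was often listed in S phase. A factor not listed may lie below the caller's cutoff. At 122 regions of HNF4A with KLF5, S-phase MYC was present at 67 (54.9%), against 22.3% where HNF4A was alone in M phase and 21.1% where KLF5 was alone. S-phase HNF4A lay at 86 of 131 regions of KLF5 with MYC (65.6%), against 20.7% for KLF5 alone and 32.9% for MYC alone. S-phase KLF5 lay at 41 of 82 regions of HNF4A with MYC (50%), against 15.6 and 28.3% for the single factors. The smallest of these 6 differences was 21.7 points (10.9 to 32.5), between HNF4A with MYC and MYC alone.

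S-phase peaks of a factor also listed in M phase were strong, and those listed in S phase alone were weaker. Peaks were ranked within their S-phase list by score, so that a low percentile is a strong peak. For HNF4A the median percentile was 8.00 at the 222 regions with a peak in both phases and 46.6 at the 86 regions where it was listed in S phase alone. MYC gave 14.0 (203 regions) and 48.1 (67 regions). KLF5 gave 13.9 (213 regions) and 29.4 (41 regions), the smallest gap of the 3. The strongest 10% of the S-phase list supplied 56.3% of the HNF4A peaks found in both phases and 5.81% of those found in S phase alone. The upper quartile of the KLF5 peaks found in both phases lay at percentile 40.5, so not all of them were strong in S phase. Strong S-phase peaks were not particular to multi-factor regions. At regions with 1 peak in each phase, median percentiles for multi-factor and single-factor regions were 8.04 and 9.63 for HNF4A. They were 14.1 and 17.2 for KLF5, and 14.1 and 11.8 for MYC.

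The same view from S phase gives the M-phase state of each class of site. Merging the S-phase lists in the same way produced 23218 regions, of which 15967 held 1 factor, 4884 held 2 and 2367 held 3. In M phase, 2 or more factors were listed at 66 of the single-factor S-phase regions (0.413%, 0.320 to 0.526%), at 94 of the 2-factor regions (1.92%, 1.56 to 2.35%) and at 213 of the 3-factor regions (9.00%, 7.88 to 10.2%), with 1.61% over all of them. Few triple S-phase regions, 28 of 2367 (1.18%), had all 3 factors listed in M phase. The triple S-phase regions that held 2 or more factors in mitosis were wider, with a median of 2478 bp against 1996 bp for those with none. Their strongest peak was also stronger, at a median percentile of 3.64 against 18.2. Triple S-phase regions with 1 mitotic factor were closer to the former, at 2259 bp and percentile 5.28. Among single-factor S-phase regions the percentile was 15.5 with 2 or more mitotic factors, 15.9 with 1 and 61.0 with none. Among the 2-factor S-phase regions, 2 or more mitotic factors lay at 4.02% of 747 with HNF4A and KLF5 (2.73 to 5.68%), at 1.55% of 2650 with HNF4A and MYC (1.11 to 2.09%) and at 1.55% of 1487 with KLF5 and MYC (0.983 to 2.31%).

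Tag counts were lower in M phase at nearly all regions. Counts were divided by the filtered tags of their library and are given per 1000000 tags. At the 218 multi-factor regions with 1 HNF4A peak in each phase, the median S-phase value was 7.51 and the median M-phase value 1.72, and no region was higher in M phase. The median ratio of M to S was 0.249 (quartiles 0.192 and 0.318). MYC fell similarly over 202 regions, from 7.11 to 2.18, a median ratio of 0.295, with 1 region higher in M phase. KLF5 fell least over 210 regions, from 5.07 to 2.44, a median ratio of 0.485, with 13 regions higher in M phase. Single-factor regions had ratios close to these, at 0.276, 0.279 and 0.508. M-phase peaks were narrower, and per kilobase of called peak the median KLF5 ratio was 0.955, while those of HNF4A and MYC were 0.529 and 0.459. Peak widths were called separately in each list, so part of a lower sum is a narrower peak. A region had to pass the M-phase threshold to be included, which limits how low the M-phase counts can be. Summits stayed close between phases, with median shifts of 60 bp for HNF4A, 97 bp for KLF5 and 101.5 bp for MYC.

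**Figure D3:**
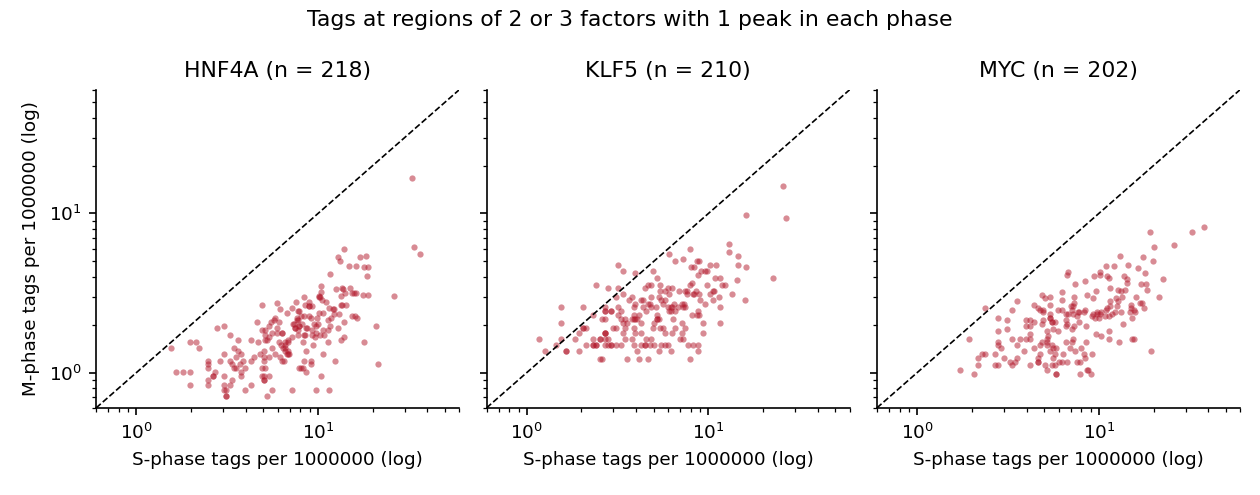
Tags per 1000000 filtered library tags in S phase (x axis, log scale) and M phase (y axis, log scale) at multi-factor regions with 1 peak of the factor in each phase; each point is a region and the dashed line marks equal values. All 218 HNF4A points and all but 1 MYC point lie below the line, and 13 of 210 KLF5 points lie above it.

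The 31 regions of all 3 mitotic factors most often had all 3 factors in S phase. Their share was 74.2%, and KLF5 with MYC, the highest pair, had 55.7%. They did not lead for each factor, as S-phase MYC was at 77.4% of them and at 88.5% of regions of KLF5 with MYC. All mitotic factors of the region were listed in S phase at 74.2% of the triple regions and 74.0% of those of KLF5 with MYC. S-phase HNF4A was present at all 31 (lower bound 88.8%, background 48.5%), KLF5 at 28 (background 25.4%) and MYC at 24 (background 40.1%). All 3 were listed at 23 (background 14.3%). S-phase HNF4A ranged from 1.97 to 18.9 tags per 1000000 with a median of 8.21, and M-phase HNF4A from 0.773 to 5.06 with a median of 1.55. KLF5 medians were 4.59 and 2.17, and MYC medians 6.52 and 1.82. RAD21 lay at 11 of these regions in S phase (35.5%, background 15.8%) and 14 in M phase (45.2%, background 16.0%). CTCF lay at 4 in S phase (12.9%, background 13.3%) and 5 in M phase (16.1%, background 12.1%), which is near the background. H3 lay at none, which allows a share of up to 11.2%. All 5 proteins were present in both phases at 1 region, a state that only a region of all 3 mitotic factors can have.

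**Figure D4:**
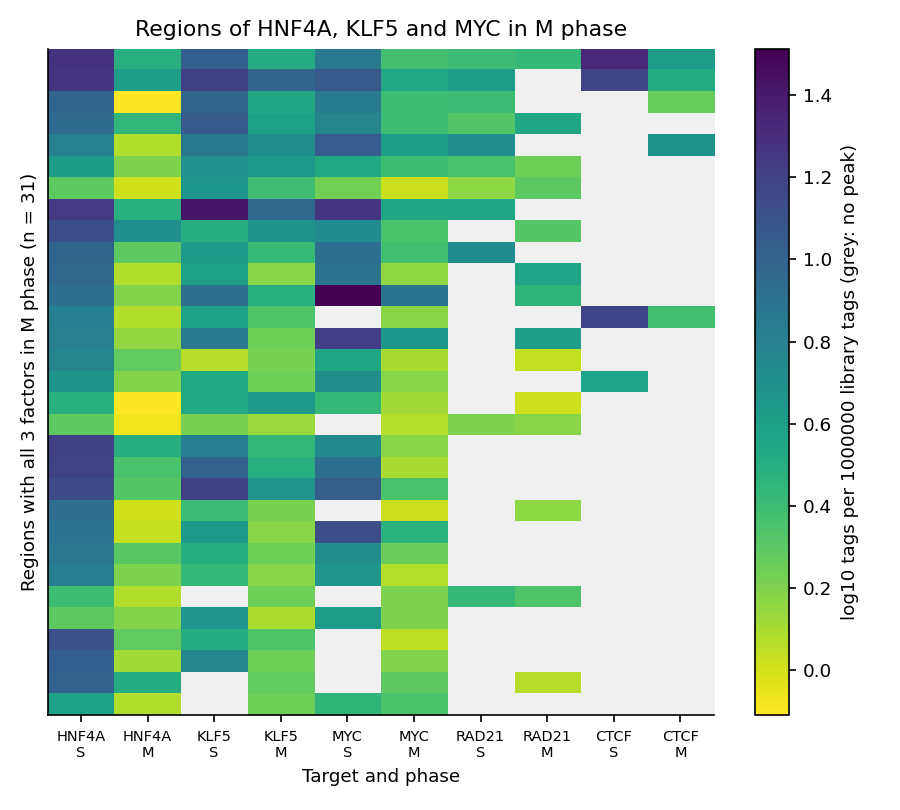
The 31 regions with HNF4A, KLF5 and MYC in M phase (rows, ordered by the number of lists with a peak) and their tags per 1000000 library tags (colour, log10 scale) in each target and phase (columns); grey means no peak. HNF4A is filled in S phase in all rows, the S-phase colours of the factors are mostly darker than the M-phase ones, and RAD21 and CTCF are present in a minority.

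Single regions show these states. Positions are in the human build hg18, values are tags per 1000000 library tags, and no gene or sequence is given because no hg18 genome or annotation was used here. Regions were ordered by the fold enrichment over IgG, as deposited by the authors, of their less enriched factor. The leading triple region, chr10:114842991-114844483, had HNF4A at 4.27 (S) and 1.61 (M). There KLF5 stood at 4.93 and 4.35, and MYC at 3.34 and 2.48. KLF5 changed least, and RAD21 without CTCF was listed in both phases, at 2.26 and 1.76.

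The triple region chr9:33741751-33742815 ranked among the strongest S-phase HNF4A sites, at rank 8 of 15437. Its S-phase HNF4A was 16.2 and its M-phase HNF4A 3.15, its KLF5 6.48 and 2.72, and its MYC 5.49 and 1.50, with neither RAD21 nor CTCF in either phase. At chr2:200878802-200879767 all 3 factors were listed in both phases and RAD21 in M phase only, at 1.09. At chr20:51671422-51672354 MYC was listed in M phase only, at 1.17, beside HNF4A (1.97 and 0.833) and KLF5 (1.64 and 1.36). RAD21 was listed there in both phases, at 1.59 and 1.51. The authors' false discovery rate was 100% for the M-phase MYC and HNF4A peaks of this region. It was also 100% for the M-phase MYC peaks of the chr9 and chr2 regions above.

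Among regions of HNF4A with KLF5, the leading one was chr18:3251147-3252407. Its HNF4A values were 12.6 and 3.33, S phase first. KLF5 gave 8.60 and 5.03, which were ranks 17 of 5928 and 5 of 2118. A weak S-phase MYC peak of 1.29 was not listed in M phase. The region chr19:701718-704368 held 2 peaks each of HNF4A and KLF5 in M phase, and 1 S-phase peak of each of the 3 factors overlapped it.

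HNF4A with MYC was led by chr2:120152695-120153972, with HNF4A at 15.4 and 2.26 and MYC at 6.68 and 2.02. At chr3:51991118-51992265 both factors lay with RAD21 and CTCF in both phases. RAD21 was 2.92 and 2.54, S phase first, CTCF 22.6 and 4.79, HNF4A 9.28 and 1.84, and MYC 9.80 and 2.35, while S-phase KLF5, at 3.09, was not listed in M phase. KLF5 with MYC was led by chr17:17435049-17436624, where KLF5 was 10.2 and 4.75 and MYC 17.0 and 3.58. The S-phase HNF4A peak there, at 4.02, was not listed in M phase.

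A minority of regions had a factor with no S-phase peak. By regions, KLF5 was listed in M phase only at 71 of 284, MYC at 41 of 244 and HNF4A at 13 of 235. Such peaks were more frequent over the whole M-phase lists. There, 1433 of 2118 KLF5, 467 of 1974 MYC and 486 of 2413 HNF4A peaks met no S-phase peak of the same factor. The leading example was chr17:60498963-60500189, with HNF4A at 13.6 (S) and 3.39 (M). KLF5 was listed there in M phase alone, at 2.72. At chr4:77375859-77376762 the same pattern held, with HNF4A at 5.91 and 1.78 and M-phase KLF5 at 1.49. None of the 5 proteins was listed in S phase at 11 of the 366 regions, against 1971 of all 6104 merged regions. At chr11:106886181-106887181 HNF4A was 1.13 and KLF5 1.49 in M phase, and at chr6:12118740-12119744 KLF5 was 1.49 and MYC 1.11. The authors' FDR, a false discovery rate, stood at 100% for the HNF4A peak of the first and the MYC peak of the second. Over all multi-factor regions an FDR of 100% was attached to 156 of 237 HNF4A peaks and 171 of 244 MYC peaks, compared with 78.8% of all M-phase HNF4A peaks and 77.3% of all M-phase MYC peaks. An FDR under 5% was given to 0 of 237 HNF4A, 13 of 244 MYC and 124 of 286 KLF5 peaks of these regions, and to 0 of 2413, 86 of 1974 and 396 of 2118 peaks of the whole lists.

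RAD21 was more frequent at multi-factor than at single-factor regions in both phases. In S phase it lay at 99 of the 366 regions (27.0%, 22.6 to 31.9%, background 15.8%) and in M phase at 131 (35.8%, 30.9 to 40.9%, background 16.0%). Single-factor regions stood at 15.0% in S phase and 14.7% in M phase. The differences were 12.0 points in S phase (7.61 to 16.9) and 21.1 in M phase (16.3 to 26.2). With M-phase peaks of FDR under 5% alone, a limit that all S-phase RAD21 peaks met, the order turned. The M-phase share of multi-factor regions was then 15.0% and the difference 8.75 points (5.39 to 12.8), both below the S-phase values. At M-phase factor scores of at least 100, which left 40 regions, the interval of the S-phase difference included 0 (12.8 points, -0.268 to 28.5). Among regions with all 3 factors in S phase, S-phase RAD21 was at 34.9% of multi-factor and 33.7% of single-factor regions, a difference of 1.17 points (-6.17 to 8.96). In M phase the same regions gave 40.1 and 28.7%, a difference of 11.4 points (3.83 to 19.1).

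RAD21 listed in M phase alone was also more frequent at multi-factor regions. Of the 366 regions, 61 had RAD21 in both phases, 38 in S phase only and 70 in M phase only (19.1%, 15.2 to 23.5%, background 6.96%). Single-factor regions had RAD21 in M phase only in 6.19% of cases. Where RAD21 was absent from S phase, it was listed in M phase at 70 of 267 multi-factor regions (26.2%) and 7.28% of single-factor regions, a difference of 18.9 points (14.0 to 24.6). Where it was present in S phase, it was listed again in 61.6 and 56.7%, a difference of 4.95 points (-5.42 to 14.5). M-phase CTCF was present at 13 of the 70 multi-factor regions with RAD21 in M phase only, and at 73 of the 355 such single-factor regions, a similar share.

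These M-phase peaks were weak. The 72 RAD21 peaks involved had a median of 1.76 tags per 1000000 and a median percentile of 74.0 in the M-phase list, and 19 of them had an FDR under 5%. The restriction to that limit was added after the data were seen. The M-phase RAD21 library held 16510005 filtered tags and the S-phase library 7531890, and the part of depth and of the shared control in these counts was not tested.

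CTCF was listed at similar numbers of multi-factor regions in the phases, though not always at the same ones. It lay at 69 multi-factor regions in S phase (18.9%, 15.0 to 23.2%, background 13.3%) and at 72 in M phase (19.7%, 15.7 to 24.1%, background 12.1%). Single-factor regions had 12.9 and 11.7%. CTCF was in both phases at 47 multi-factor regions, in S phase only at 22 and in M phase only at 25. The counts at the 5738 single-factor regions were 501, 242 and 168. Where CTCF was listed in S phase, it was listed again at 68.1% of multi-factor and 67.4% of single-factor regions. With peaks of FDR under 5% alone, the shares of multi-factor regions were 14.5% (S) and 8.20% (M). The M-phase limit was added after the data were seen. KLF5 with MYC carried CTCF most often, with 28.2% (S) and 31.3% (M), and HNF4A with KLF5 least often, at 8.20% in both. Single-factor regions also differed: MYC alone had 20.9% (S) and 21.6% (M), KLF5 alone 10.6 and 8.68%, and HNF4A alone 8.59 and 6.25%. When the summits of 2 factors had to lie within 250 bp, the CTCF differences from single-factor regions shrank to 0.859 points in S phase and 2.99 in M phase, with intervals that include 0. The S-phase interval also included 0 with 50% overlap of the peaks (3.05 points, -0.911 to 7.92), within the 5 groups of score (3.24 points, -0.968 to 7.45), without M-phase KLF5 (5.32 points, -1.07 to 13.7) and at scores of at least 100 (1.51 points, -7.51 to 16.1). The M-phase interval also included 0 without M-phase KLF5 (5.32 points, -0.920 to 13.6) and at scores of at least 100 (3.51 points, -6.24 to 18.4). RAD21 without CTCF occupied 59 regions in S phase (16.1%, background 8.34%) and 87 in M phase (23.8%, background 8.94%). RAD21 summits in M phase lay a median of 122 bp from the nearest factor summit, over 131 regions, and CTCF summits 180 bp, over 72 regions.

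**Figure D5:**
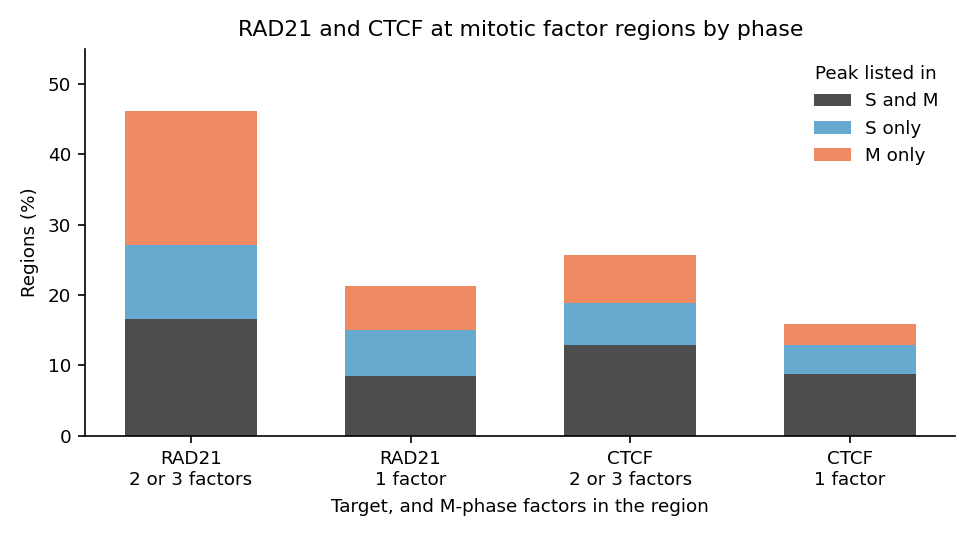
Share of regions (y axis, percent) with RAD21 or CTCF in both phases (dark), S phase only (blue) or M phase only (orange), for multi-factor and single-factor regions (x axis). RAD21 in M phase only takes 19.1% of multi-factor and 6.19% of single-factor regions, and the CTCF bars differ less.

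RAD21 and CTCF were both present in both phases at 26 of 366 multi-factor regions and 278 of 5738 single-factor regions (4.98% of all merged regions). The multi-factor ones were led by chr12:120810147-120812345. RAD21 gave 5.97 and 3.15 there, S phase first, CTCF 32.4 and 4.37, KLF5 6.38 and 2.17, and MYC 6.79 and 4.30. The region with the most peaks over all lists, chr16:21219464-21220635, held 11. It had all 3 factors in S phase, KLF5 and MYC in M phase, 2 RAD21 peaks in each phase and 2 CTCF peaks in M phase.

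The regions were spread over chromosomes 1 to 22, none lay on X and 2 lay on other sequences. Chromosome 12 held 49 of them (13.4%, against 8.02% of single-factor regions), chromosome 1 held 38 (10.4 against 9.65%), chromosome 7 held 36 (9.84 against 6.76%) and chromosome 15 held 25 (6.83 against 4.58%). Chromosomes 3 and 5 held fewer, with 10 each (2.73 against 5.61%). As a share of all mitotic factor regions on the chromosome, chromosome 12 had 9.63% (7.21 to 12.5%) and chromosome 5 had 3.01% (1.45 to 5.47%). Most regions were isolated: 42 lay within 100 kb of another one, and the median distance to the nearest was 1265170 bp.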

How the data were processed

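Of 16 ChIP-seq libraries, 12 had peak lists (3 factors, RAD21, CTCF and H3, each in both phases) and 4 were IgG controls. Groups were taken from sample titles. Per the submitters' processing notes, CASAVA 1.4, BWA and MACS 1.4 were used with build hg18; per the file headers, MACS 1.4.0rc2 called each list on 1 merged alignment against IgG at a p-value cutoff of 1e-05. The deposited tag counts are whole numbers without scaling. Scores, as deposited, are the log10 p-value times -10, the deposited fold enrichment is a ratio over the local IgG background, and the deposited FDR is a percent. All listed peaks were used.

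Merging, overlap of at least 1 bp, Clopper-Pearson and Newcombe 95% intervals were computed with scipy 1.17.1 and pandas 2.3.3 (numpy 2.4.6) under Python 3.11.15, and tested on simulated data. Differences within groups of score have normal intervals from the binomial variances. Named regions are, on chromosomes 1 to 22 and X, those with the highest fold enrichment of the less enriched factor for each combination, state of RAD21 and CTCF and S-phase state, and the one with the most peaks; a part of them is given. The regions, rules and alternatives were chosen with earlier results of these data known. Alternatives covered the joining rule, score, FDR, H3, the KLF5 list and the overlap rule. No reference of build hg18 was used, so genes, motifs and sequences were not analysed here.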

Additional observations from a re-analysis of the deposited data

How the results depend on the processing

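No paired analysis was possible because each group has 1 library. Of 159 recomputed values of 18 results, 114 stayed within the interval of the reported value (within 1.5 times for the number of regions), 42 moved further and 3 turned in sign; the causes were not tested. The number of regions was 239 with summits within 250 bp, 40 with M-phase scores of at least 100 and 112 without M-phase KLF5. With summits within 250 bp, MYC in S phase was at 68.6% (difference from single-factor regions 30.7 points), all mitotic factors in S phase at 65.3% (4.66), CTCF at 13.8% in S phase (0.859) and 14.6% in M phase (2.99). With scores of at least 100 the S-phase shares were 100% for HNF4A (difference 22.1), 80% for KLF5 (38.9) and 87.5% for MYC (25.8), all factors 87.5% (-10.3, turned), RAD21 35% in S and 47.5% in M phase, and CTCF differences 1.51 in S and 3.51 in M phase. Without M-phase KLF5, S-phase HNF4A was at 92.0% (32.4), KLF5 at 60.7% (36.3), the MYC difference was 29.4 and that of all factors -6.54 (turned). With only summits inside the region counted, HNF4A was at 79.0%, MYC 66.7%, all factors 63.9% and S-phase CTCF 10.9%. With an S-phase FDR under 5%, S-phase CTCF was at 14.5%. The other S-phase values could not change under that limit, because all S-phase HNF4A, KLF5, MYC and RAD21 peaks met it. They are counted among the 114 all the same. Within 5 groups of score, pooled over the 3 lists, the differences were 18.0 for HNF4A, 37.8 for KLF5 and 21.5 for MYC. That of all factors was -15.0 (turned), and RAD21 gave 7.58 in S and 15.7 in M phase. Among settings added after the data were seen, a 500 bp window gave M-phase CTCF at 15.6%. An M-phase FDR under 5% gave RAD21 at 15.0% (8.75) and CTCF at 8.20% (2.72). Depth limits absence: a factor not listed in M phase may lie below the caller's cutoff.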
